A study of Homo sapiens with 27 samples.

Results

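Genes that were nearly silent in prostate cancer cells, and that lie just behind an active gene on the same strand, were examined after knockdown of CPSF1. The members were chosen by their control levels and position. A gene was taken as quiet when its mean level with the control hairpin (CTRL sh) was below 2 CPM (counts scaled to library size) in each of 3 cell lines, and its nearest upstream neighbour as active when that neighbour was above 20 CPM in all 3 lines. The neighbour had to be on the same strand, without overlap, and to end within 5 kb of the 5′ end of the quiet gene. Of 20268 genes in the table, 7293 were quiet, and 182 of these met the rule (below, members), with 181 distinct neighbours. The same rule with the neighbour on the opposite strand gave 154 control genes. Such a neighbour is read away from the control gene, and the median gap to it was 384 bases, shorter than for the members. Members lay on 22 chromosomes, 5 of them on X or Y, and the gap to the neighbour ran from 6 to 4977 bases with a median of 2047.5. Many members encode proteins known from other tissues, among them proteins of meiosis and sperm, liver and muscle enzymes, immune cell receptors and neuropeptides.

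CPSF1 is the largest subunit of the cleavage and polyadenylation specificity factor, the complex that binds the poly(A) signal near the end of a nascent transcript. The complex cuts the RNA there, a poly(A) tail is added to the upstream piece, and RNA polymerase II leaves the template further downstream once the remaining RNA is degraded. A quiet gene placed behind an active one in the same direction lies in the stretch of DNA that the polymerase of the active gene reaches if it is not released. An exon count does not record where a transcript began.

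LNCaP, LNCaP95 and 22Rv1 are established human prostate cancer cell lines. LNCaP95 is a derivative of LNCaP and, like 22Rv1, is used as a model of castration-resistant disease. Each line was transduced with lentivirus carrying CTRL sh, a non-silencing hairpin, or 1 of 2 CPSF1 hairpins (named CPSF1 sh1 and CPSF1 sh2), selected with puromycin, expanded and grown for 72 h from 500000 cells per well. LNCaP and 22Rv1 cells were kept in RPMI 1640 with serum, and LNCaP95 cells in the phenol red free form of this medium. Each of the 9 groups had 3 replicates (BR1 to BR3), giving 27 libraries of polyadenylated RNA that keep the strand. The lines are populations of infected cells, and the labels do not say whether the replicates came from separate infections, so the p-values measure the spread between these samples.

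Library totals over genes ran from 8515624 to 15904518 counts (median 11058723). CPSF1 mRNA was 0.629-fold the CTRL sh level in LNCaP, 0.523-fold in LNCaP95 and 0.704-fold in the 22Rv1 line, and all 6 CPSF1 sh libraries lay below the 3 CTRL sh libraries in each line (edgeR quasi-likelihood test, adjusted p = 2.67e-07, 8.29e-07 and 5.13e-05). All 8 prostate epithelial markers were present in every line, and their summed level was lower with CPSF1 sh in LNCaP (3738 to 4040 against 4984 to 5069 CPM) and LNCaP95 cells (3904 to 4187 against 6055 to 6292 CPM), but overlapped in 22Rv1 cells. Of 7 markers of other cell types, 6, 6 and 5 were under 1 CPM in every library of LNCaP, LNCaP95 and 22Rv1 cells. Their summed level, carried by the rest, was 13.5 to 16.7 CPM with CPSF1 sh against 21.9 to 26.2 CPM with CTRL sh in LNCaP cells, 42.7 to 57.9 against 57.1 to 74.2 CPM in LNCaP95 cells, which overlap, and 11.8 to 14.7 against 12.04 to 14.4 CPM in 22Rv1 cells, and its part in the results was not tested. Of 17 cleavage, polyadenylation and termination factors, LNCaP cells had 8 higher and 2 lower, LNCaP95 cells 8 and 3, and 4 and 3 changed so in the 22Rv1 line, with CPSF1 and NUDT21 lower in each line. Over all genes tested the shares called higher and lower were 30.4% and 30.2% (LNCaP), 32.9% and 32.7% (LNCaP95), and 13.6% each way (22Rv1). In such bulk RNA, fewer cells of a type and less RNA per cell cannot be told apart.

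The ends of the neighbours are shown first, because the poly(A) signal there is what CPSF reads. Within the last 50 bases of the annotated gene, on its own strand, 65.7% of the 181 neighbours held AATAAA and a further 10.5% held ATTAAA without it. For the 7311 genes above 20 CPM in all lines these shares were 61.8% and 14.7%, and 56.7% and 12.9% for 20219 genes of the deposited data. A match is a string of letters, not a used site. The following 30-base pieces, read 5′ to 3′ on the strand of the gene from the GRCh37 genome, which is the build of the deposited coordinates, come from the ends of neighbours whose members rose by several fold. Capitals mark the hexamer nearest to the annotated end. They lie at chr1:76260739-76260768 on the plus strand (RABGGTB), chr1:167885958-167885987 minus (MPC2), chr11:64532079-64532108 minus (SF1), chr4:3441613-3441642 plus (RGS12), chr1:154179177-154179206 minus (C1orf43), chr2:96808911-96808940 minus (DUSP2) and chr16:66836779-66836808 minus (NAE1).
RABGGTB, before MSH4: acaaAATAAAtggctgttgaaatttggaaa
MPC2, before ADCY10: gtttATTAAAaatttatgtgagcttggtgt
SF1, before PYGM: attgAATAAAagagcagtgtggttttctgg
RGS12, before HGFAC: gcccAATAAAgcatttctgaggacccaagc
C1orf43, before C1orf189: atcaAATAAAacgtatgaatcagtccttta
DUSP2, before ASTL: tgtcAATAAAatattgttatatttaaaaaa
NAE1, before CCDC79: tcttAATAAAcatttttctcatttgtaata
The pieces were cut around the hexamer, so each holds one by construction, AATAAA in 6 of the 7 and ATTAAA in MPC2. LDHA, the neighbour of LDHC, held neither hexamer in that window.

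Some members begin almost at once after their neighbour. Of 3 members that rose in all 3 lines, had a gap under 300 bases and had no exon of the GENCODE lift to GRCh37 inside it, the whole gap is given for 2, and the other gap is not reported here. The 2 are AC027307.3, a single-exon gene without an assigned function that lies 254 bases behind the ribosomal protein gene RPS15 (chr19:1440584-1440837, plus strand), and SLC39A5, a zinc transporter gene 194 bases behind NABP2 (chr12:56623639-56623832, plus).
RPS15 to AC027307.3: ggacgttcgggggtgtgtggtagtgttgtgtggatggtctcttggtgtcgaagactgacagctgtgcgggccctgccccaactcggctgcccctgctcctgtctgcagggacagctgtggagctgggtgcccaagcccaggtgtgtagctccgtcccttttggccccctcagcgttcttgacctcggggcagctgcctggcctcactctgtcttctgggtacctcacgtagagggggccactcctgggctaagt
NABP2 to SLC39A5: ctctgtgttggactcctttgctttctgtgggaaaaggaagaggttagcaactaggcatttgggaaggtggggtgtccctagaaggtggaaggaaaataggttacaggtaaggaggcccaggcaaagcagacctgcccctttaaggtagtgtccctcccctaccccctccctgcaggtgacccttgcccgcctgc
The gaps are shown for their length alone, and nothing is read from them about poly(A) signals.

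Members rose far more often than they fell. Higher calls also outnumbered lower ones among quiet genes in other positions, as given below. In LNCaP cells, 54 of 80 members tested were higher with CPSF1 sh than with CTRL sh and 4 were lower, where 30.4% of all genes tested were called higher and 30.2% lower. In LNCaP95 cells 87 of 112 were higher and 2 lower, against 32.9% and 32.7% of all genes, and in 22Rv1 cells 59 of 89 were higher and 1 lower, against 13.6% in each direction. A gene was tested where it had at least 45 counts over the 9 libraries of the line, and was called at an adjusted p below 0.05 in the edgeR quasi-likelihood test over 3 CTRL sh and 6 CPSF1 sh libraries, adjusted over all genes tested. The median log2 fold change of the members tested was 1.54, 2.67 and 1.30 in LNCaP, LNCaP95 and 22Rv1 cells, beside 0.00, 0.01 and 0.00 over all genes tested. Of the 182 members, 43 rose in all 3 lines, 22 in 2 lines, 27 in 1 line and 90 in none, and 6 fell in at least 1 line. Only 68 members were tested in all 3 lines, and the 90 include 60 that were tested in no line. The matching counts over all genes are not given here, so this tally across lines has no background and is read only as a description. A member with very few CTRL sh counts could pass the filter only through the CPSF1 sh libraries, and the rule itself used the CTRL sh libraries, so these counts describe the set and are not an independent test of it.

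Over all 182 members, tested or not, the 6 CPSF1 sh libraries all lay above the 3 CTRL sh libraries for 70 members in LNCaP (38.5%), 101 in LNCaP95 (55.5%) and 60 in the 22Rv1 line (33.0%). Over all 20268 genes this was so for 19.2%, 21.2% and 10.2%. The summed level of the members per library went from 53.7 to 58.8 CPM with CTRL sh to 176 to 194 CPM for CPSF1 sh1 and 244 to 249 CPM for CPSF1 sh2 in LNCaP cells. It went from 60.3 to 68.4 CPM to 251 to 268 and 391 to 439 CPM in LNCaP95 cells, and from 71.5 to 74.8 CPM to 167 to 186 and 246 to 250 CPM in the 22Rv1 line. No CPSF1 sh library overlapped a CTRL sh library in this sum. The same held for the sum of the control genes, whose mean went from 53.5 CPM to 87.5 CPM (CPSF1 sh1) and 89.5 CPM (CPSF1 sh2) in LNCaP cells, from 60.4 to 88.5 and 98.4 CPM in LNCaP95 cells and from 51.8 to 70.1 and 76.8 CPM in 22Rv1 cells. It also held for all other quiet genes, from 899 to 1640 and 1794 CPM in LNCaP cells, from 883 to 1814 and 2395 CPM in LNCaP95 cells and from 1279 to 1671 and 2026 CPM in 22Rv1 cells. Without PYGM, ADCY10 and MSH4, the mean sum was 138.5, 223 and 148 CPM with CPSF1 sh1 and 178, 342 and 208 CPM with CPSF1 sh2, against 55.6, 61.2 and 71.7 CPM with CTRL sh.

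Shares called higher were lower than for the members in the control genes, in all other quiet genes pooled and in quiet genes behind a quiet gene. These differences were not tested. Quiet genes 5 to 10 kb behind an active same-strand gene had shares close to or above those of the members. There LNCaP cells had 28 higher out of 38 tested, LNCaP95 cells 47 out of 59, and the 22Rv1 line 26 out of 40. The control genes lie closer to their active neighbour than the members do, and that neighbour is read away from them. Of these, 25 of 54 tested were higher in LNCaP cells (46.3%), 28 of 65 in LNCaP95 cells (43.1%) and 11 of 44 in the 22Rv1 line (25%). Lower calls numbered 2, 4 and 1, and the median log2 fold changes were 0.73, 0.68 and 0.52. In 22Rv1 cells, leaving out CTRL sh replicate 2 or 3 cut the share of all 154 control genes called higher from 7.14% to 1.95%, while the members stayed between 24.7% and 32.4% of 182. Among genes with at least 15 CTRL sh counts in the line, which pass the filter less through the CPSF1 sh libraries, 20 of 44 members and 17 of 44 control genes were higher in LNCaP cells, so the shares were close there. In LNCaP95 cells these counts were 37 of 59 and 17 of 48, and in 22Rv1 cells 30 of 57 and 9 of 38. All other quiet genes gave 47.0%, 54.4% and 25.4% of those tested, with 438, 586 and 287 higher and 72, 44 and 41 lower. Of quiet genes behind a quiet gene on the same strand, a group added after values were seen, 7 of 23, 12 of 27 and 8 of 29 tested were higher and 3, 0 and 2 lower. Of the 30 control genes tested in all 3 lines, 5 rose in each, among them AKAP3, an anchoring protein of the sperm tail, and CA13, a carbonic anhydrase. For the members this was 43 of the 68 tested in all 3 lines. The largest control rises included RNF151, a testis RING finger gene, from 0.0588 ± 0.102 CPM (SD, n = 3) to 0.964 ± 0.337 CPM (n = 6) in LNCaP cells, and ENKUR, a gene of sperm and cilia, from 0.449 ± 0.171 to 3.72 ± 0.585 CPM in the same line. NYAP1, a neuronal adaptor, was the largest control fall, 0.247-fold in LNCaP cells (adjusted p = 0.00141).

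**Figure D1:**
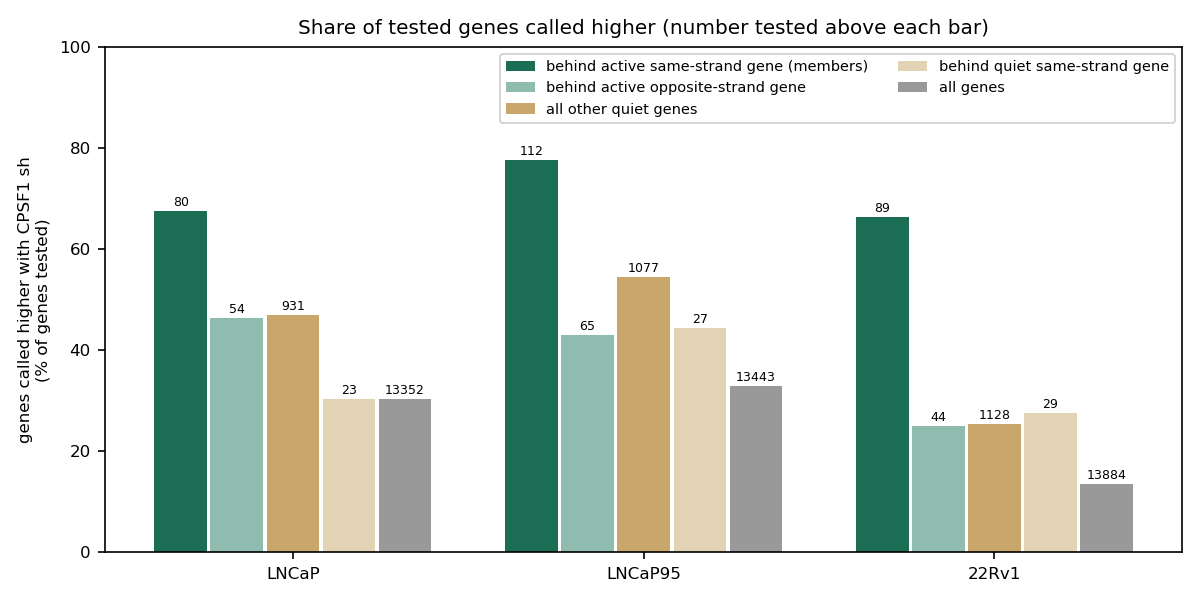
Bars give the percentage of genes tested that were called higher with CPSF1 sh in each line, by the position of the gene, with the number tested above each bar. Members stand at 67.5%, 77.7% and 66.3%, above the control genes at 46.3%, 43.1% and 25% in LNCaP, LNCaP95 and 22Rv1 cells.

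To remove the libraries shared by choice and test, the rule was applied to CTRL sh replicate 1 alone, and the members so chosen were tested with CTRL sh replicates 2 and 3 against the 6 CPSF1 sh libraries. This gave 184 members. In LNCaP cells 55 of 82 tested were higher (67.1%, against 26.9% of all genes), in LNCaP95 cells 86 of 114 (75.4%, against 28.9%) and in the 22Rv1 line 48 of 90 (53.3%, against 8.61%), and 52, 84 and 46 of these were among the members called in the full comparison. The control genes chosen in the same way gave 15 of 46, 17 of 57 and 4 of 36. These shares are still over genes that passed the count filter, which reads the CPSF1 sh libraries too, so members with almost no CTRL sh counts, such as LDHC, entered only because they were high with CPSF1 sh.

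Genes of germ cells, sperm and cilia were the largest group with a named role. Of 27 members placed there, by lists of roles written after the values were seen, 20 were tested in at least 1 line, 15 rose in at least 1 line, 9 rose in all 3, and none fell in the edgeR test. Over all members 92 of the 122 tested in at least 1 line rose in at least 1, so the share in this list, like those in the lists of roles that follow, is read only against that one and sets no list apart. MSH4, which acts with MSH5 at meiotic crossovers, stands 1802 bases behind RABGGTB, a subunit of the Rab prenylation enzyme (MSH4 at chr1:76262567-76378923, plus strand, 20 exon blocks). In LNCaP cells MSH4 was at 0.0942, 0.504 and 0.353 CPM in the CTRL sh libraries, and its CPSF1 sh libraries ran from 14.6 over a median of 18.8 to 20.7 CPM. In LNCaP95 cells CTRL sh gave 0.221, 0.274 and 0.199 CPM and CPSF1 sh 5.43 to 7.75 CPM with a median of 7.07. In 22Rv1 cells CTRL sh gave 0.412, 0.275 and 0.422 CPM and CPSF1 sh 7.92 to 14.9 CPM with a median of 11.01. The groups were far apart in each line, with log2 fold changes of 5.76 ± 0.26 (SE), 4.79 ± 0.28 and 4.87 ± 0.35 and adjusted p = 8.35e-10, 5.93e-08 and 8.22e-07 by edgeR. RABGGTB itself fell in the same lines, from 182 to 136, from 57.4 to 40.1 and from 86.6 to 75.1 CPM.

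ADCY10, the bicarbonate-sensing soluble adenylyl cyclase of sperm, lies 2513 bases behind the mitochondrial pyruvate carrier gene MPC2 (chr1:167778625-167883453, minus strand, 35 exon blocks). In LNCaP cells it was at 0.471, 0.420 and 0.353 CPM with CTRL sh and between 17.5 and 34.3 CPM, with a median of 25, with CPSF1 sh. In LNCaP95 cells it was at 0.664, 0.366 and 0.497 CPM with CTRL sh and between 6.62 and 17.9 CPM, with a median of 10.5, with CPSF1 sh. In 22Rv1 cells the values were 1.24, 0.550 and 0.951 CPM, and 13.0 to 19.2 CPM with a median of 17.5. No libraries overlapped, and the fold was 60.1 in LNCaP, 20.4 in LNCaP95 and 17.9 in the 22Rv1 line (adjusted p = 3.85e-08, 8.26e-06 and 4.46e-08, edgeR). MPC2 rose in LNCaP cells, from 228 ± 4.36 to 323 ± 11.9 CPM, and fell in LNCaP95 and 22Rv1 cells, from 323 ± 4.50 to 251 ± 12.7 and from 252 ± 13.4 to 202 ± 14.8 CPM.

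LDHC, the lactate dehydrogenase of sperm, lies 3881 bases behind its housekeeping relative LDHA (chr11:18433854-18473605, plus strand). It had no count in any CTRL sh library of LNCaP or LNCaP95 cells and 1 count in those of 22Rv1 cells. With CPSF1 sh it ran from 0.477 to 2.41 CPM in LNCaP, from 2.06 to 5.38 CPM in LNCaP95 and from 0.189 to 1.47 CPM in the 22Rv1 line. The rise was thus at least 16.3-fold in LNCaP and at least 39.4-fold in LNCaP95 cells, taking 3 counts over the 3 CTRL sh libraries as the floor, and 23.6-fold (95% counting interval 4.03 to 952) in 22Rv1 cells. The groups did not overlap in any line, and edgeR gave adjusted p = 0.000628, 1.89e-05 and 0.00408. LDHA fell by 0.46, 0.66 and 0.37 on the log2 scale in the same cells. The pair are paralogs, and reads that fit both copies could be split between them. How far this touched the LDHC count was not tested.

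CCDC79, the telomere-binding meiotic protein also known as TERB1, lies 1254 bases behind NAE1 and had 1 count in 9 CTRL sh libraries. With CPSF1 sh it ran from 0.358 to 0.988 CPM in LNCaP, 0.845 to 2.44 CPM in LNCaP95 and 0 to 1.28 CPM in the 22Rv1 line, and it was called higher in each line (adjusted p = 0.000125, 3.37e-05 and 0.0111, edgeR). In 22Rv1 cells 1 CPSF1 sh1 library was at 0 like the controls, and the call was lost there with CPSF1 sh1 alone. ASTL, the ovastacin protease of the egg, 4729 bases behind DUSP2, went from 0, 0.168 and 0.353 CPM to 2.68 to 4.13 CPM in LNCaP cells, and its fold was 17.7, 11.3 and 11.01 in LNCaP, LNCaP95 and 22Rv1 cells. PNLDC1, the nuclease that trims piRNAs, behind MRPL18, had no CTRL sh count in LNCaP cells and 0.574 to 1.76 CPM with CPSF1 sh, at least a 14.8-fold rise, while in LNCaP95 cells it went from 1.34 ± 0.397 to 7.79 ± 1.35 CPM. In 22Rv1 cells its call (4.08-fold, adjusted p = 0.0424) was lost when CTRL sh replicate 1, 2 or 3 or CPSF1 sh2 replicate 1 or 3 was left out, with CPSF1 sh1 alone and with the choice on CTRL sh replicate 1. HSF5, a testis heat shock factor behind MTMR4, was at 0 with CTRL sh in LNCaP95 cells and at 0.422 to 1.53 CPM with CPSF1 sh (adjusted p = 0.000517), and it was too low to be tested in the other lines.

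A stretch of chromosome 1 holds 2 members in a row. C1orf43, C1orf189, TPM3 and NUP210L follow each other on the minus strand, and the 1st and 3rd of these are active. C1orf189, a gene of cilia now named CFAP141, starts 372 bases behind C1orf43 and had 0, 0.0914 and 0.298 CPM with CTRL sh against 1.42 to 3.19 CPM with CPSF1 sh in LNCaP95 cells. In 22Rv1 cells it had 0.165, 0.275 and 0 CPM against 1.93 to 3.69 CPM, a log2 fold change of 4.13 ± 0.48. NUP210L, a testis relative of a nuclear pore protein, starts 191 bases behind the tropomyosin gene TPM3 and went from 0.149 ± 0.109 to 1.64 ± 0.730 CPM in LNCaP95 cells (adjusted p = 0.000289). Neither active gene rose in any line. C1orf43 was lower in LNCaP95 cells, by 0.17 on the log2 scale, and TPM3 did not pass the test.

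Of 16 members for metabolic enzymes and transporters, 14 were tested in at least 1 line, 13 rose in at least 1 and 6 in all 3. PYGM, the glycogen phosphorylase of muscle, 4308 bases behind the splicing factor gene SF1 (chr11:64513861-64527769, minus strand), reached the highest level of any member. In LNCaP95 cells it was at 1.84, 1.65 and 1.69 CPM with CTRL sh and between 22.3 and 47.4 CPM, with a median of 32.6, with CPSF1 sh. In LNCaP cells it was at 0.471, 0.336 and 0.176 CPM against 10.4 to 17.4 CPM, and in 22Rv1 cells at 0.412, 0.275 and 0.951 CPM against 5.16 to 10.1 CPM. The log2 fold changes were 5.33 ± 0.34, 4.25 ± 0.37 and 3.86 ± 0.33 in LNCaP, LNCaP95 and 22Rv1 cells, and SF1 changed by -0.11, -0.22 and -0.05. BAAT, the enzyme of the liver that conjugates bile acids, 4113 bases behind MRPL50, had 0, 0 and 0.265 CPM with CTRL sh and 1.63 to 4.01 CPM with CPSF1 sh in LNCaP cells, and rose 30.1-fold in LNCaP95 and 16.7-fold in the 22Rv1 line. SLC39A5 rose 11.3-fold in LNCaP95 and 4.79-fold in the 22Rv1 line, and was also called higher in LNCaP cells, where CTRL sh held 3 counts, the ratio was 7.05 (95% counting interval 2.25 to 35.6) and the groups overlapped. UCP3, the uncoupling protein of muscle, rose 1.79-fold, 11.1-fold and 2.02-fold, and GPD1, a glycerol phosphate dehydrogenase, 2.52-fold, 9.95-fold and 3.52-fold.

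Of 15 members of blood and immune cells, 10 were tested in at least 1 line, 7 rose in at least 1 and 3 in all 3. FCER1G, the signalling chain shared by immunoglobulin Fc receptors, was at 0.369, 0.731 and 0.596 CPM with CTRL sh in LNCaP95 cells and at 10.9 to 21.5 CPM, with a median of 16.03, with CPSF1 sh. It went from 0.282, 0.252 and 0.0882 CPM to 3.58 to 9.31 CPM in LNCaP cells and from 0.329, 0.458 and 0.211 CPM to 1.80 to 6.97 CPM in 22Rv1 cells. FCER1G overlaps AL590714.1 on the same strand. The libraries did not overlap, with adjusted p = 2.90e-06, 9.63e-07 and 0.000217 for LNCaP, LNCaP95 and 22Rv1 cells. HCLS1, an actin regulator of blood cells, rose 1.86-fold, 8.86-fold and 4.36-fold, and CARD9, an adaptor of antifungal signalling, 2.83-fold, 4.24-fold and 3.48-fold. The leukocyte markers PTPRC and CD3E were under 1 CPM in every library.

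PSMB8, a subunit of the immunoproteasome 505 bases behind the peptide transporter gene TAP1, went both ways. In LNCaP cells it was at 1.60, 1.34 and 1.41 CPM with CTRL sh and between 0.412 and 0.895 CPM with CPSF1 sh, and fell (0.486-fold, adjusted p = 0.00627). In LNCaP95 cells it was at 0.295, 0.548 and 0.497 CPM with CTRL sh and between 0.608 and 1.52 CPM with CPSF1 sh, and rose (2.31-fold, adjusted p = 0.0116), a call lost without CTRL sh replicate 1, with CPSF1 sh1 alone and with the members chosen on CTRL sh replicate 1. In 22Rv1 cells the fall to 0.540-fold (adjusted p = 0.0459) did not hold when CTRL sh replicate 1 or 3 or any of 4 CPSF1 sh libraries was left out, nor with CPSF1 sh1 alone, without a filter on low counts, with the choice on CTRL sh replicate 1 or in DESeq2. TAP1 rose by 0.32 and 0.50 on the log2 scale in LNCaP and LNCaP95 cells.

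Of 21 members for secreted signals and receptors, 15 were tested in at least 1 line, 12 rose in at least 1 and 8 in all 3. HGFAC, the protease that activates hepatocyte growth factor, 1973 bases behind RGS12, had 0.188, 0.0840 and 0.0882 CPM with CTRL sh and 1.44 to 2.41 CPM with CPSF1 sh in LNCaP cells. In 22Rv1 cells it had 1.07, 1.10 and 0.528 CPM and 5.71 to 9.54 CPM, an 8.42-fold rise (adjusted p = 4.76e-06), and in LNCaP95 cells it rose 10.1-fold. GRM2, a glutamate receptor, rose 7.46-fold, 13.0-fold and 6.36-fold, GNRH2, a gonadotropin-releasing hormone, 8.54-fold, 7.93-fold and 3.78-fold, and UCN2, a urocortin, 9.62-fold, 22.1-fold and 3.47-fold. NPFF, a neuropeptide gene, rose by less, 2.38-fold, 3.85-fold and 2.01-fold. UCN2 overlaps PFKFB4 and NPFF overlaps RP11-793H13.10 on the same strand, so that their reads could be shared. HAMP, the gene of the iron hormone hepcidin, 900 bases behind USF2, had no count with CTRL sh in any line and 0.382 to 2.18 CPM with CPSF1 sh in LNCaP95 cells, a rise of at least 13.7-fold (adjusted p = 0.00198). The members of this group that fell did so in LNCaP cells, namely BMP8A to 0.450-fold and WNT2B to 0.532-fold (adjusted p = 0.0223 and 0.0102), each with libraries that overlapped between the groups.

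Among the 103 other members, 45 rose in at least 1 line. PDE6G, a phosphodiesterase subunit of the retina behind OXLD1, went from 0.516, 0.457 and 0.596 CPM to 2.90 to 5.37 CPM in LNCaP95 cells and rose 8.62-fold in LNCaP cells. TBR1, a transcription factor of the cerebral cortex behind PSMD14, had no CTRL sh count in LNCaP cells and 0.477 to 1.09 CPM with CPSF1 sh, at least an 8.73-fold rise, and rose 6.66-fold in LNCaP95 cells. It overlaps SLC4A10 on the same strand. LRRC66, a leucine-rich repeat gene behind SGCB, went from 0.0737, 0 and 0.298 CPM to 2.82 to 6.20 CPM in LNCaP95 cells and rose 12.2-fold in the 22Rv1 line. MYRFL, a relative of the myelin regulatory factor behind RAB3IP, had no CTRL sh count in LNCaP95 cells and 0.912 to 1.76 CPM with CPSF1 sh, at least 14.7-fold. It overlaps AC025263.3 on the same strand. RP11-1035H13.3, behind SMG1, had at most 0.0840 CPM with CTRL sh in LNCaP cells and 0.358 to 1.24 CPM with CPSF1 sh, but overlaps RPS15A and ARL6IP1 on its own strand, so that its reads could be shared. AC027307.3, singled out for its short gap, rose 18.04-fold, 19.8-fold and 5.75-fold.

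A few other members fell in 1 line. NIM1K, a kinase gene 49 bases behind ZNF131, was at 1.13, 0.923 and 0.970 CPM with CTRL sh and 0.438 to 0.823 CPM with CPSF1 sh in LNCaP cells (0.537-fold, adjusted p = 0.0204), and lost the call without CTRL sh replicate 1, with CPSF1 sh2 alone, with the choice on CTRL sh replicate 1 and in DESeq2. RP11-691N7.6, which overlaps CTNND1 and other genes on its own strand behind TMX2, fell in LNCaP95 cells from 1.18, 1.28 and 1.49 CPM to 0.358 to 0.743 CPM (0.343-fold, adjusted p = 0.000543). KRBA2, a gene with a KRAB domain, fell to 0.634-fold in LNCaP95 cells (adjusted p = 0.0319, edgeR). It overlaps RP11-849F2.7 on the same strand.

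**Figure D2:**
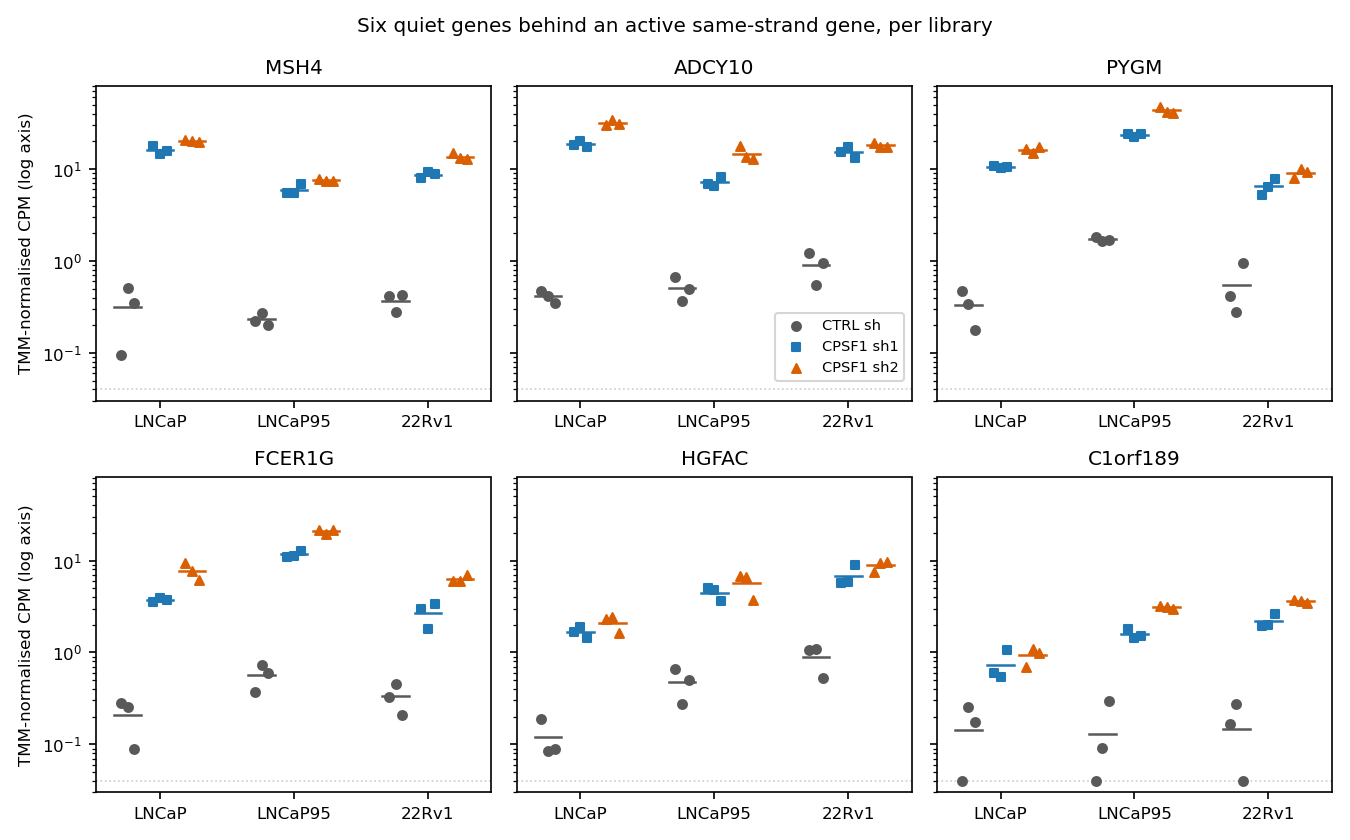
Each point is 1 library, in TMM-normalised CPM on a log axis, with CTRL sh in grey circles, CPSF1 sh1 in blue squares and CPSF1 sh2 in orange triangles, bars at the group mean, and libraries with no count drawn on the dotted line. In the 3 lines, every CPSF1 sh library of MSH4, ADCY10, PYGM, FCER1G, HGFAC and C1orf189 lies above the 3 CTRL sh libraries.

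The rises left the members well below their neighbours. Per kb of exon, the members called higher were at a median of 0.667% of the level of their neighbour with CTRL sh and 3.79% with CPSF1 sh in LNCaP cells. The medians were 0.589% and 5.70% in LNCaP95 cells and 0.769% and 3.49% in the 22Rv1 line. HGFAC came closest to its neighbour, at 77.8% ± 17.3 (SD, n = 6) of the RGS12 level per kb in 22Rv1 cells and 54.4% ± 13.9 in LNCaP95 cells, from 10.1% and 4.16% with CTRL sh. MSH4 reached 24.3%, 30.8% and 26.8% of RABGGTB per kb, and ADCY10 3.24%, 1.80% and 3.47% of MPC2. By level, 4 members in LNCaP, 4 in LNCaP95 and 2 in the 22Rv1 line had a CPSF1 sh mean of 10 CPM or more, and 25, 46 and 30 had 2 CPM or more.

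The neighbours themselves changed in both directions. In LNCaP cells 32.6% were higher and 28.7% lower, against 30.4% and 30.2% of all genes. In LNCaP95 cells the shares were 26.5% and 40.9%, against 32.9% and 32.7%, and in 22Rv1 cells 7.73% and 16.6%, against 13.6% each. Leaving out 1 library moved the 22Rv1 shares between 2.76% and 16.6% for higher neighbours, the ends being without CTRL sh replicate 3 and without CPSF1 sh1 replicate 3, and between 11.1% and 24.3% for lower ones. With CPSF1 sh1 alone 2.76% were higher and 10.5% lower in 22Rv1 cells, and with CPSF1 sh2 alone 20.4% and 32.0%. Of 181, LNCaP cells had 59 higher and 52 lower, LNCaP95 cells 48 and 74, and 14 and 30 changed so in the 22Rv1 line, with median log2 fold changes of 0.00, -0.06 and -0.01. Scaled by library size alone, LNCaP95 cells had 75 higher and 52 lower neighbours, so the direction of neighbours in this line depends on the scaling. The members called higher stood behind a neighbour that was lower in 13, higher in 15 and not called in 26 cases in LNCaP cells, in 39, 19 and 29 cases in LNCaP95 cells, and in 10, 5 and 44 cases in the 22Rv1 line. The log2 fold change of a member was compared with that of its neighbour, with a Spearman rho of 0.0596 over 80 pairs in LNCaP, 0.0961 over 112 in LNCaP95 and -0.00555 over 89 in the 22Rv1 line, where both values of a pair come from the same libraries. Between lines, the log2 fold changes of the 68 members tested in each were alike in order, with rho of 0.75 between LNCaP and LNCaP95, 0.80 between LNCaP and 22Rv1 and 0.71 between LNCaP95 and 22Rv1 cells. These correlations are across genes, which are not independent replicates.

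**Figure D3:**
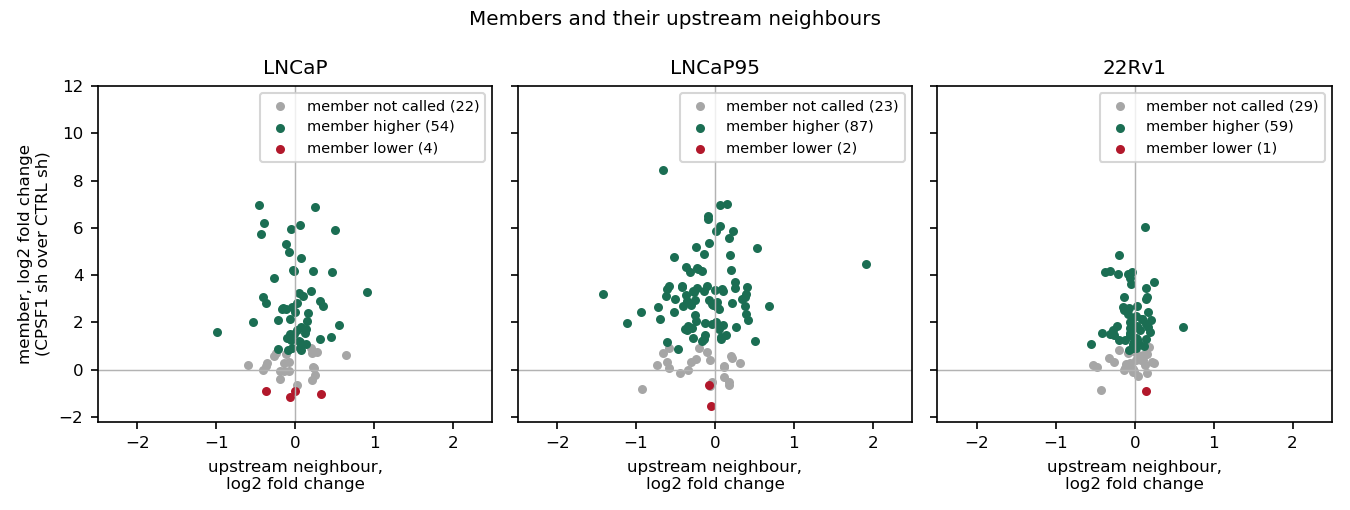
Each point is a member tested in that line, with the log2 fold change of its upstream neighbour on the horizontal axis and its own on the vertical axis (CPSF1 sh over CTRL sh), coloured by the call on the member. The 54, 87 and 59 members called higher spread to both sides of 0 on the horizontal axis, and values of members without CTRL sh counts depend on the prior count of the fit.

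The 2 hairpins against CPSF1 differed in how far the members rose in LNCaP95 and 22Rv1 cells. The contrast itself leaves out the CTRL sh libraries, while the count filter, the scaling and the spread in the fit used all 9 libraries of the line. In LNCaP95 cells 48 of 112 members tested were higher with CPSF1 sh2 than with CPSF1 sh1 and none was lower (edgeR, adjusted p below 0.05), where 15.5% of all genes tested were higher with CPSF1 sh2 and 16.2% with CPSF1 sh1. In 22Rv1 cells 15 of 89 were higher with CPSF1 sh2 and none lower (4.97% and 5.44% of all genes), and in LNCaP cells 6 of 80 were higher and 1, the sperm gene ROPN1L, lower (5.26% and 6.32%). The share of members higher with CPSF1 sh2 in LNCaP cells, 7.5%, was near that of all genes. For the members the median log2 difference came to 0.57 (LNCaP95), 0.42 (22Rv1) and 0.32 (LNCaP). Other quiet genes leaned the same way. Of all other quiet genes tested, 221 were higher with CPSF1 sh2 and 29 with CPSF1 sh1 in LNCaP95 cells (20.5% higher with CPSF1 sh2), 73 and 2 in 22Rv1 cells (6.47%) and 25 and 13 in LNCaP cells (2.69%). Of the quiet genes behind a quiet gene, 6 of 29 were higher with CPSF1 sh2 in 22Rv1 cells, a larger share (20.7%) than that of the members (16.9%), with a median difference of 0.33. In LNCaP95 cells 5 of 27 were higher and 3 lower (18.5% higher, against 42.9% of the members), and in LNCaP cells 0 of 23 were called by edgeR either way, with 3 higher with CPSF1 sh2 at an unadjusted p below 0.05. Of the control genes, 7 of 65, 1 of 44 and 0 of 54 were higher with CPSF1 sh2 in LNCaP95, 22Rv1 and LNCaP cells (10, 4 and 2 at an unadjusted p below 0.05), with median differences of 0.06, 0.00 and 0.12. At that unadjusted p, 60 of 112, 28 of 89 and 14 of 80 members were higher with CPSF1 sh2 and 0, 0 and 1 lower. Over all genes 2792, 1775 and 1721 were higher and 2854, 1776 and 1785 lower, of 13443, 13884 and 13352 tested. Quiet genes behind a quiet gene had 6 higher and 5 lower in LNCaP95 cells and 10 and 1 in 22Rv1 cells. MSH4, FCER1G and AC027307.3 were higher with CPSF1 sh2 in all 3 lines. FCER1G, for example, in LNCaP cells went from 3.75 ± 0.179 CPM under CPSF1 sh1 to 7.74 ± 1.57 CPM under CPSF1 sh2 (n = 3 each, adjusted p = 0.00196, edgeR), and AC027307.3 at 7.23 ± 1.18 and 15.2 ± 0.832 CPM. PYGM in LNCaP95 cells was at 23.5 CPM under CPSF1 sh1 and at 43.4 CPM under CPSF1 sh2 (adjusted p = 9.29e-09). CPSF1 mRNA itself was at 60.6 ± 5.88 and 60.4 ± 2.43 CPM with the hairpins in LNCaP95 cells, 127 ± 14.3 and 133 ± 7.41 CPM in the 22Rv1 line and 100.1 ± 7.14 and 90.6 ± 6.14 CPM in LNCaP cells, differences that did not pass the test (adjusted p = 0.954, 0.624 and 0.107).

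**Figure D4:**
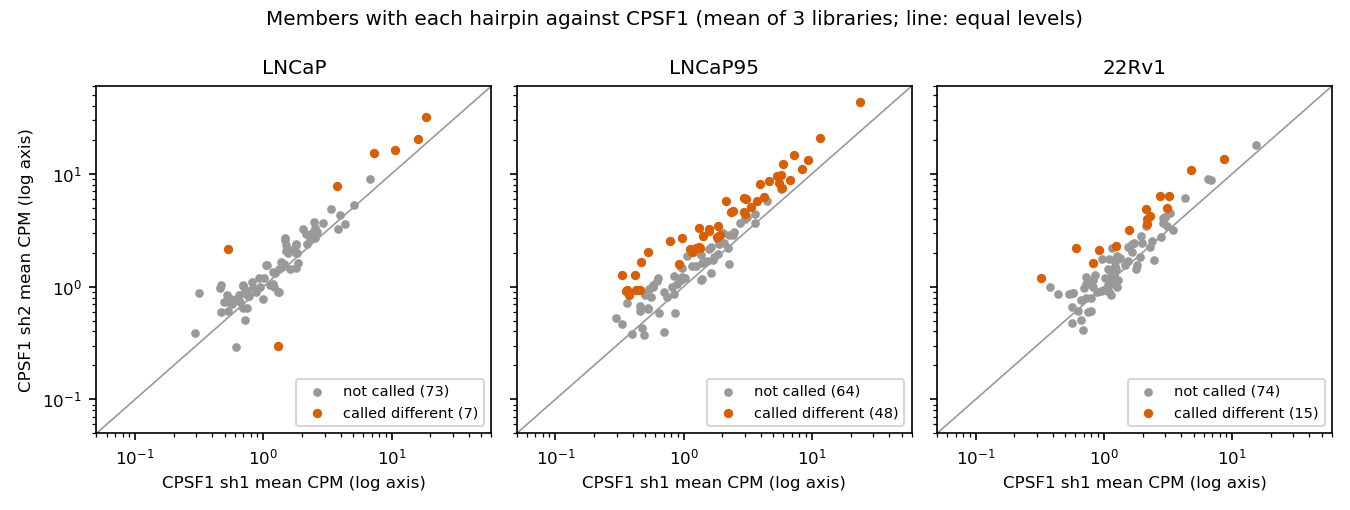
Mean CPM of each tested member with CPSF1 sh1 (horizontal) and CPSF1 sh2 (vertical), 3 libraries each, on log axes, with the line of equal levels. Members called different are in orange, 7 in LNCaP, 48 in LNCaP95 and 15 in the 22Rv1 line, and all but ROPN1L in LNCaP cells lie above the line.

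By distance, the share counted was that of all quiet genes of a bin whose 6 CPSF1 sh libraries lay above the 3 CTRL sh libraries. These shares were higher within 5 kb than beyond 10 kb, without a test. A smaller part of the distant genes had enough counts to be tested, in LNCaP cells 48 of 247 at 20 to 50 kb against 24 of 47 at 0 to 1 kb. Bins of 1 kb within 5 kb ran from 30.8% to 44.4% in LNCaP, 46.2% to 61.1% in LNCaP95 and 26.7% to 38.9% in 22Rv1 cells. In LNCaP and 22Rv1 cells the lowest of these were close to the shares at 5 to 10 kb. Over all genes the share was 19.2%, 21.2% and 10.2%. Quiet genes 0 to 1 kb behind an active same-strand gene had all 6 CPSF1 sh libraries above all 3 CTRL sh libraries in 36.2% of 47 genes in LNCaP, 53.2% in LNCaP95 and 38.3% in the 22Rv1 line, and those 4 to 5 kb behind in 30.8%, 46.2% and 30.8% of 26 genes. At 5 to 10 kb the shares were 29.5%, 41.1% and 25.6% of 129 genes, at 20 to 50 kb 19.8%, 25.5% and 16.2% of 247 genes, and at 50 to 100 kb 17.4%, 18.02% and 11.6% of 172 genes. Where the active gene was on the opposite strand they were 21.4%, 21.4% and 10.2% of 98 genes at 0 to 1 kb. They were 5%, 20% and 5% of 20 genes at 1 to 2 kb and 5.73%, 7.64% and 1.91% of 157 genes at 50 to 100 kb. The opposite-strand bins between 2 and 5 kb hold 12 genes each and are not read. Distances above 5 kb were added after values were seen. At 0 to 1 kb on the same strand, 15 of 24 genes tested in LNCaP and 22 of 29 in LNCaP95 were called higher. At 20 to 50 kb these were 34 of 48 and 52 of 68, and at 50 to 100 kb 18 of 32 and 22 of 34. In 22Rv1 cells the counts were 16 of 27, 33 of 77 and 13 of 43. In LNCaP and LNCaP95 cells the called share was no lower at 20 to 50 kb than at 0 to 1 kb. Over all genes tested it was 30.4%, 32.9% and 13.6%. The median log2 fold change of genes tested was 1.24, 2.15 and 1.35 at 0 to 1 kb and 2.14, 2.68 and 0.85 at 20 to 50 kb in LNCaP, LNCaP95 and 22Rv1 cells. Among members tested, larger rises went weakly, if at all, with larger gaps, with a Spearman rho of 0.249, 0.123 and 0.0759 in the same order. This direction is opposite to the fall of the shares from within 5 kb to beyond 10 kb.

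**Figure D5:**
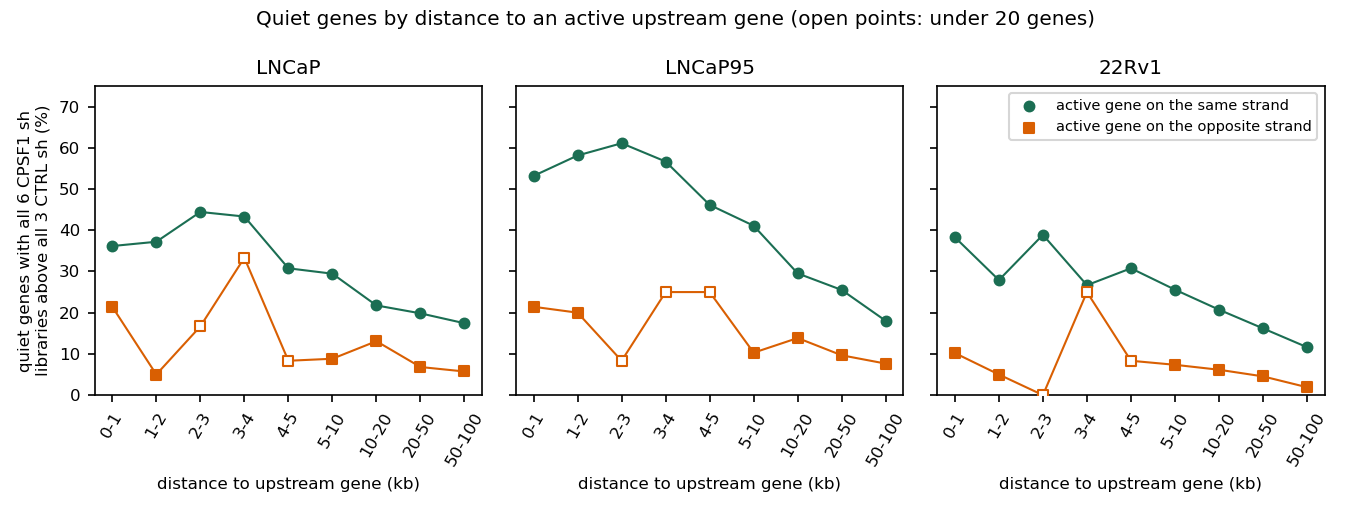
Percentage of quiet genes whose 6 CPSF1 sh libraries all lie above the 3 CTRL sh libraries, by distance in kb to the nearest upstream gene, where that gene is active and on the same strand (green) or the opposite strand (orange). Open points stand for fewer than 20 genes, and the same-strand points run from 36.2%, 53.2% and 38.3% at 0 to 1 kb to 17.4%, 18.02% and 11.6% at 50 to 100 kb in LNCaP, LNCaP95 and 22Rv1 cells.

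The knockdown effect was compared between lines. In 1 fit over all 27 libraries, 100 members could be tested for a difference of the knockdown effect between lines. For LNCaP95 minus LNCaP the difference was positive in 17 and negative in 4 members, where 21.5% and 21.1% of all genes tested were positive and negative. For 22Rv1 minus LNCaP95 it was positive in 2 and negative in 18 (22.4% and 22.9% of all genes), and for 22Rv1 minus LNCaP positive in 5 and negative in 8 (17% and 18.5%). The members' shares were thus below those of all genes in each pair and direction. Of 62 control genes tested, 6 were positive and 8 negative for LNCaP95 minus LNCaP, 4 and 10 for 22Rv1 minus LNCaP95, and 3 and 4 for 22Rv1 minus LNCaP. The lines also differ in how far CPSF1 mRNA fell, and LNCaP95 from the others in culture medium, which cannot be told apart from the line.

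Of the 182 members, 60 were tested in no line, among them CD79A, a B cell receptor chain, ACR, the protease of the acrosome, and IL34, a cytokine gene, and 41 had under 45 counts in all 27 libraries together, of which 5 had none. These were left out by the filter on counts, so a lack of a call there says nothing of a lack of change. Without the filter 85 of the 182 members were called higher in LNCaP cells. The matching count over all genes is not given here, so this count has no background. At the edges of the rule, AC010642.1 was just inside 2 CPM (1.91) and WNK4, an ion transport kinase, just outside (2.01). IL34 was just inside 5 kb (4977 bases) and RP11-512M8.5 just outside (5008 bases). The neighbour of WNT2B, at 20.4 CPM, and that of AC061992.1, at 19.7 CPM, lay on the sides of 20 CPM. Another gene of the table overlaps 37 of the members on the same strand. Without them 44, 74 and 47 members rose in LNCaP, LNCaP95 and 22Rv1 cells. How many of the rest were tested is not given here, so no share is read from these counts.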

How the data were processed

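Reads of TruSeq Stranded mRNA libraries were aligned by the authors to hg19 (GRCh37) with HISAT2 2.1.0 and counted on exons with Subread (2.0.3 per the submitters' processing notes; the paper's methods name another version), strand-aware, with an Ensembl annotation. The deposited table holds raw counts per gene, without normalization, with coordinates and exon lengths. Groups were taken from sample titles. Members and role lists were chosen with earlier results of these data known, and the role lists, gap bins above 5 kb and the group behind quiet genes after values were seen. Gene ends were the smallest start and largest end listed, and 13 symbols on more than 1 chromosome or strand, the histone genes and LAG3, AOC2, AOC3, MAMDC4, KCNAB3 and MC1R were left out of the choice.

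CPM for the choice used library totals, and CPM printed elsewhere used TMM factors. Each line was fitted in R 4.3.3 with edgeR 4.0.16 (quasi-likelihood F-test, legacy form, Benjamini-Hochberg), genes with at least 45 counts over 9 libraries being kept, or 135 over 27 for differences between lines. Counting intervals (exact, 95%) and the floor of 3 counts cover counting error only. Named members were those called higher in at least 2 lines, up to 14 by their smallest log2 fold change, then the 4 largest rises and 2 largest falls per line among called members whose groups did not overlap, with the largest control changes by the same rule. AC027307.3 and SLC39A5 were shown for their gaps (other sequences and 1 neighbour are not reported here), and other genes as examples chosen after their values were seen. The fits were tested on simulated data, where 50 of 50 genes raised 4-fold and 50 of 50 raised 8-fold were called in each line. The genes changed were drawn from low-level genes that passed the filter, with their mean over the libraries as the CTRL sh level. The simulation therefore does not cover members with almost no CTRL sh counts. Of genes cut to 0.25-fold that could be tested, 31 of 34, 35 of 37 and 37 of 37 were called in LNCaP, LNCaP95 and 22Rv1 cells, others being too low for the filter, and 4, 7 and 12 calls were false. Alternatives were DESeq2 1.42.0, other scalings, filters, hairpins, thresholds of the rule and leaving out each library.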

Additional observations from a re-analysis of the deposited data

Results flagged for a closer look

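For several named members the knockdown effect differed between lines in the joint edgeR fit, on the log2 scale. PNLDC1 rose less in LNCaP95 than in LNCaP cells (difference -4.39, adjusted p = 0.0152) and less in 22Rv1 than in LNCaP cells (-4.92, adjusted p = 0.0307), and TBR1 less in 22Rv1 than in LNCaP cells (-5.09, adjusted p = 0.023). In LNCaP cells both had no CTRL sh count, so the size of these differences depends on the prior count of the fit. The same holds for MYRFL in 22Rv1 against LNCaP95 cells (-4.28, adjusted p = 0.0162), where LNCaP95 had no CTRL sh count. PSMB8 moved in opposite directions, with a difference of 2.26 for LNCaP95 minus LNCaP (adjusted p = 0.000132) and -2.11 for 22Rv1 minus LNCaP95 (adjusted p = 0.000359). NIM1K fell in LNCaP and was at 1.09-fold in LNCaP95 cells (difference 1.03, adjusted p = 0.0361). RP11-691N7.6 fell in LNCaP95 and was at 1.61-fold in 22Rv1 cells (difference 2.22, adjusted p = 0.00347).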

How the results depend on the processing

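The share of the 182 members called higher kept within 1.5 times its main value of 29.7% in LNCaP, 47.8% in LNCaP95 and 32.4% in the 22Rv1 line under each alternative run, except in LNCaP cells without a filter on low counts (46.7%) and with at least 90 counts (19.2%, fewer genes tested). For control genes the share fell with the choice on CTRL sh replicate 1 to 10.3% in LNCaP (main 16.2%), 11.7% in LNCaP95 (18.2%) and 2.76% in the 22Rv1 line (7.14%), and in 22Rv1 cells to 1.95% with CPSF1 sh1 alone. For neighbours in 22Rv1 cells, higher calls (main 7.73%) were 2.76% with CPSF1 sh1 alone, 20.4% with CPSF1 sh2 alone, 12.7% with the hairpins as separate groups and 12.4% within 2 kb, and lower calls (16.6%) were 10.5%, 32.0% and 10.1% with CPSF1 sh1, CPSF1 sh2 and 2 kb. Scaling by library size alone raised the neighbours called higher in LNCaP95 cells from 26.5% to 41.4% and cut the negative differences for LNCaP95 minus LNCaP from 4 to 2 members. It moved the median of all genes in LNCaP95 cells from 0.01 to 0.14 on the log2 scale and the calls from 4421 higher and 4390 lower to 5910 and 3045. Leaving out 1 library at a time gave 1.95% to 7.79% for control genes called higher, 2.76% to 16.6% for neighbours called higher and 11.1% to 24.3% for neighbours called lower in 22Rv1 cells (the low ends for control genes without CTRL sh replicate 2 or 3, for neighbours called higher without CTRL sh replicate 3), and 27.5% to 30.8%, 46.7% to 48.4% and 24.7% to 32.4% for members called higher in LNCaP, LNCaP95 and 22Rv1 cells. The cause was not tested. No named gene changed sign under the alternatives run, but the excess of lower over higher neighbours in LNCaP95 cells turned round with library size alone. A replicate block gave 54, 86 and 53 members higher in LNCaP, LNCaP95 and 22Rv1 cells, counts without a matching background over all genes here. The labels do not say whether the replicate numbers pair the samples, and the block is given only for this reason. Same-number correlations ran from -0.282 to 0.332 and those between other numbers from -0.37 to 0.32. In LNCaP cells these ranges were -0.0455 to 0.309 and -0.31 to 0.0816.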
